A study of Homo sapiens with 8 samples.

Results

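Collagens, laminins and the proteases and inhibitors that act on them were examined in HepG2 cells, a human liver tumor line. Genes were taken by symbol: collagen chains (COL), laminin chains (LAMA, LAMB, LAMC), matrix metalloproteinases (MMP), tissue inhibitors of metalloproteinases (TIMP) and ADAMTS proteases. The rule found 70 of the 17561 genes in the expression table, namely 28 collagen, 11 laminin, 13 MMP, 4 TIMP and 14 ADAMTS genes. Of 102 symbols listed for these families, the other 32, among them COL1A2, COL3A1, LAMA4 and MMP1, were not analysed here. The symbol rule used no measured difference between the groups, although the genes were chosen with earlier results of these data known.

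The cells received pGRHL2, which encodes the epithelial transcription factor GRHL2 with a flag tag under an EEF1A1 promoter together with enhanced GFP, or the control plasmid pcDNA3. The promoter and the reporter therefore also set the 2 plasmids apart. RNA was taken 48 h later from cells grown on dishes coated with gelatin, which is denatured collagen. There were 4 libraries per plasmid, numbered 1 to 4, all from this single cell line. The study describes the 4 replicates as biologically independent, while the labels give no culture or day for them. All samples are bulk RNA, in which a change in the number of expressing cells and a change in RNA per cell cannot be told apart.

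Each deposited value is a log2 level per transcript length, which allows levels to be compared between genes. In 17561 of 17561 genes, averaging a pGRHL2 library with the pcDNA3 library of the same number gave 1 value, whichever of the 4 numbers was taken (tolerance 1e-09). Same-numbered libraries were thus handled as 4 pairs, and the values of the 2 groups mirror each other around a common mean, so that groups do not overlap exactly when all 4 pairs point the same way. Changes are stated as log2 FC, the mean of the 4 pair differences (pGRHL2 minus pcDNA3), together with their SD, and a gene is said to have risen or fallen where limma, fitted over all genes with the pair as a block, gave an adjusted p under 0.05. The library medians lay between 6.71 and 6.73, and the read depth of the libraries is unknown. As a check of the labels, GRHL2 itself was higher by 9.48 ± 0.57 (SD over 4 pairs; adjusted p = 4.84e-08 in limma). The 9 hepatocyte markers were all measured, from 9.83 for TTR to 17.11 for AFP, and 0 of them were called. Of all genes, 1.69% were called higher and 0.501% lower by limma.

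Collagens are secreted proteins whose chains wind into helices. Fibrillar collagens form the cables of connective tissue, whereas type IV collagen forms the sheet of basement membranes, where it meets laminins, which assemble from an alpha, a beta and a gamma chain. MMPs cut these proteins, TIMPs block MMPs, and ADAMTS enzymes trim procollagens or cut proteoglycans. In the liver, most fibrillar collagen is made by stellate cells and portal fibroblasts, while epithelial cells such as cholangiocytes rest on a laminin-rich basement membrane.

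Of the 70 genes, 3 rose in pGRHL2, all of them collagens (COL2A1, COL26A1 and COL13A1), and 0 fell. Each of the 3 was weakly expressed, and their log2 FC lay between 0.07 and 0.34. The 3 genes make 4.29% of the 70, while 1.69% of all tested genes were called higher and 0.501% lower by limma. Before adjustment, 17 of the 70 had a limma p under 0.05, of which 16 were higher. Of all 17561 genes, 2802 had such a p, of which 1611 were higher and 1191 lower. The laminins, MMPs, TIMPs and ADAMTS proteases had 0 calls.

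A wider count was taken of genes whose groups did not overlap. Among the 70 genes, 23 (32.9%) were higher in all 4 pairs, against 13.4% of all genes, and 2 (2.86%) were lower in all 4 pairs, against 10.5% of all genes. The genes higher in all pairs were 12 of 28 collagens, 6 of 14 ADAMTS, 3 of 13 MMPs, 1 of 11 laminins and 1 of 4 TIMPs. The genes lower in all pairs were COL4A2 and MMP20. The median difference was 0.024 on the log2 scale over the 70 genes and 0.002 over all genes.

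**Figure D1:**
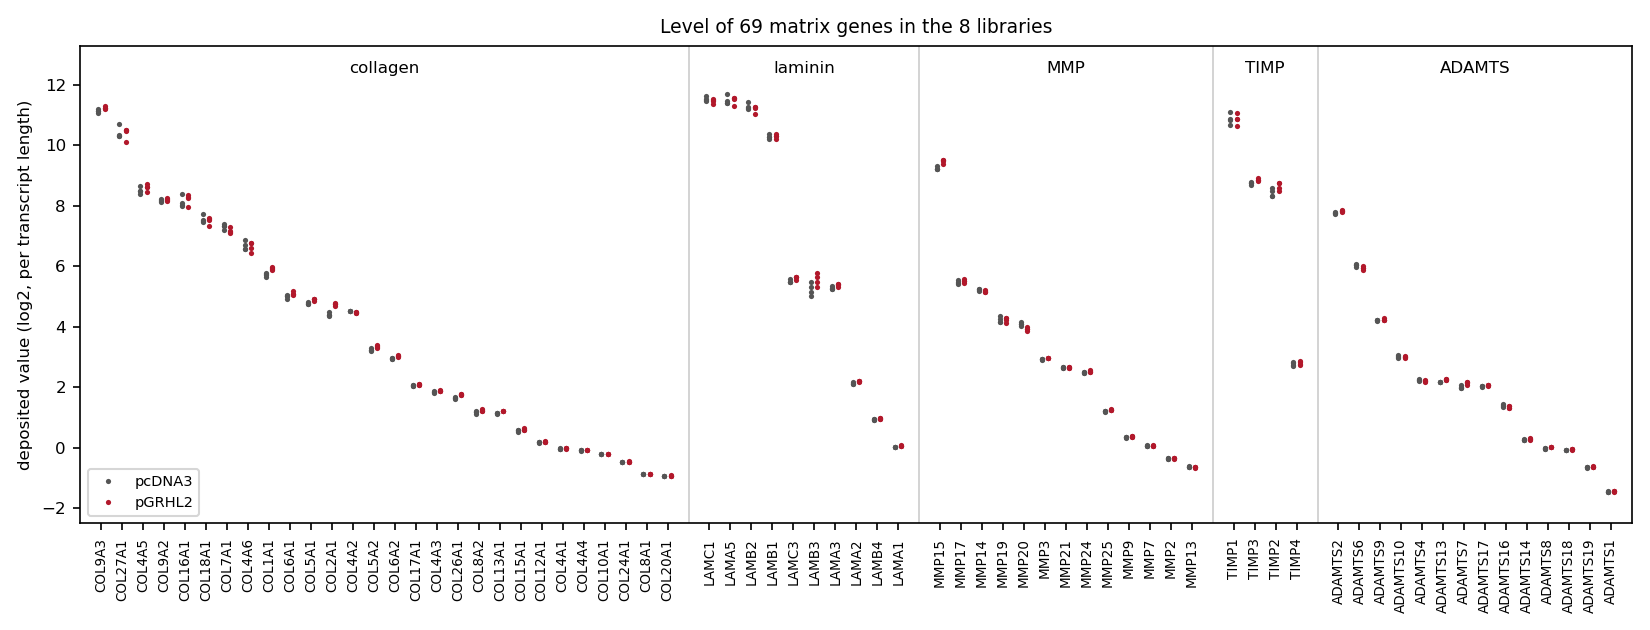
Levels of 69 of the 70 genes in each library. The vertical axis is the deposited log2 value per transcript length, each point is 1 of the 4 pcDNA3 (grey) or 4 pGRHL2 (red) libraries, and genes are ordered by mean level within each family. Levels run from about -1.45 for ADAMTS1 to 11.49 for LAMC1, and within a gene the 2 groups lie close together compared with the differences between genes.

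Among the fibrillar collagens, COL2A1, the chain of type II collagen known from cartilage, rose. The gene spans bases 47972967 to 48004554 of chromosome 12, minus strand (hg38, GENCODE release 44). Its log2 values in pcDNA3 libraries 1 to 4 were 4.40, 4.35, 4.40 and 4.47, while those in pGRHL2 libraries 1 to 4 were 4.75, 4.79, 4.75 and 4.68. Every pGRHL2 library was above every pcDNA3 library. The log2 FC was 0.34 ± 0.099 (SD over 4 pairs; adjusted p = 0.00802 in limma), which is a 1.26-fold difference on the deposited scale. By flipping the signs of its 4 pairs, an exact two-sided test reached p = 0.125, and no set of 4 pairs can give less. The call was lost without replicate 1 (limma adjusted p = 0.0546), without replicate 3 (limma adjusted p = 0.0544), and when the variance was not allowed to follow the level (limma adjusted p = 0.0862).

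COL26A1, a little studied collagen chain of the extracellular matrix, rose as well. It spans bases 101362875 to 101559024 of chromosome 7, plus strand. Its log2 values were 1.61, 1.63, 1.66 and 1.66 in pcDNA3 and 1.79, 1.77, 1.74 and 1.74 in pGRHL2. The groups did not overlap, and the log2 FC was 0.12 ± 0.045 (SD over 4 pairs; adjusted p = 0.0264 in limma). COL13A1, a collagen anchored in the cell membrane that is found at cell adhesions, spans bases 69801880 to 69964275 of chromosome 10, plus strand, and rose too. Its 4 pcDNA3 values were all 1.13, and its pGRHL2 values were 1.20, 1.20, 1.21 and 1.20, so that the groups lay apart by a small step. The log2 FC was 0.07 ± 0.0075 (SD over 4 pairs; adjusted p = 0.0343 in limma).

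The read level behind these values was approximated by adding back the log2 mean transcript length, since the deposited values had been divided by it. On this estimate, COL2A1 had about 45.3 reads per library, COL26A1 about 7.0 and COL13A1 about 4.0. The rlog transformation that the authors applied shrinks low-count genes toward their mean, and both fold changes and spreads are understated there. Over all genes, the median SD of the pair differences was 0.023 for genes under 2 on the log2 read scale and 0.122 for genes between 6 and 8. COL26A1 and COL13A1 lost their calls whichever replicate was left out, with limma adjusted p between 0.0626 and 0.126 for COL26A1 and between 0.0889 and 0.142 for COL13A1. With the trend on level removed from each pair, limma adjusted p was 0.0503 for COL26A1, 0.0811 for COL13A1 and 0.0118 for COL2A1. When the variance was not allowed to follow the level, the values for COL26A1 and COL13A1 were 0.159 and 0.214.

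Promoters are shown for the genes that rose and had an entry in the RefSeq promoter table, and for the single measured gene with a match to a GRHL-type motif, because GRHL2 is a DNA-binding factor. The 250 bases before the RefSeq start site are given 5′ to 3′ on the gene's strand (GRCh38.p14), with the motif AACNNGTT in capitals where it occurred. The sequences are COL26A1 at chr7:101362625-101362874 (plus strand), COL13A1 at chr10:69801656-69801905 (plus strand) and COL10A1 at chr6:116217145-116217394 (minus strand).
COL26A1: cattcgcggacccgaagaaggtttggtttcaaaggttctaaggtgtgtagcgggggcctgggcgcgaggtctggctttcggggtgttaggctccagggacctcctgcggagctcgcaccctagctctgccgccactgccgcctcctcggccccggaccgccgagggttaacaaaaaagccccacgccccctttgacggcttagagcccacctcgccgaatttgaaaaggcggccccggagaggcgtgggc
COL13A1: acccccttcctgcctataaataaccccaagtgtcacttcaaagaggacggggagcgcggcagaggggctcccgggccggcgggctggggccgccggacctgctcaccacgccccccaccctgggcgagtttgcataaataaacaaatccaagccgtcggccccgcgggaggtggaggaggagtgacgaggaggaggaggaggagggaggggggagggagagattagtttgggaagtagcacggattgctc
COL10A1: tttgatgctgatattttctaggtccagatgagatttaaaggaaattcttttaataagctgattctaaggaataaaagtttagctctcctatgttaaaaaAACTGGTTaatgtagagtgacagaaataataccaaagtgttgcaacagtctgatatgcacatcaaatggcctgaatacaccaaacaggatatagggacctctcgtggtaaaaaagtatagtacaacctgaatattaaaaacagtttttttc

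AACNNGTT reads the same on both strands as a pattern, so a search of one strand covers both. It occurred in 1 of 56 promoters of 47 matched genes (1.79%), and in 3.52% of all 35116 promoters. The match in COL10A1 begins 151 bases before that start site, which lies outside the GENCODE bounds of the gene (chromosome 6, 116118909 to 116158747). COL10A1, a network-forming collagen of growth cartilage, had a log2 FC of -0.0005 ± 0.015 (SD over 4 pairs) at about 1.9 reads per library. At such a level the rlog values are shrunk toward their mean, so a lack of change cannot be read from this value. The narrower form AACCGGTT, which overlaps the wider one, occurred in 0 of 56 promoters of these genes and in 0.134% of all promoters. A match is a description of the letters and not a binding site, and both forms were searched after the expression values were known.

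The other fibrillar collagens did not pass the test, and 5 of the 6 measured chains were higher in all 4 pairs, against 13.4% of all genes and 19.5% of all genes under 128 reads on the estimate above. COL1A1, the major chain of type I collagen, had log2 values of 5.66, 5.75, 5.71 and 5.77 in pcDNA3 and of 5.99, 5.90, 5.94 and 5.88 in pGRHL2. These groups did not overlap, with a log2 FC of 0.20 ± 0.10 (SD over 4 pairs; adjusted p = 0.0838 in limma). COL5A1 and COL5A2, which encode chains of type V collagen, a collagen that helps to start fibrils, had log2 FC of 0.12 ± 0.061 and 0.11 ± 0.087 (SD over 4 pairs), with limma adjusted p of 0.165 and 0.156. COL24A1 was barely expressed, with a mean log2 level of -0.47 in pcDNA3 and a log2 FC of 0.02. The exception was COL27A1, the most highly expressed chain of the 6, which had 3 pairs above 0 and 1 pair below.

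COL27A1 varied more between pairs than any other of the 20 genes with the highest read level. Its log2 values were 10.35, 10.30, 10.31 and 10.71 in pcDNA3 and 10.46, 10.52, 10.51 and 10.10 in pGRHL2. Pairs 1 to 3 differed by 0.11, 0.22 and 0.20, and pair 4 by -0.61, which left a log2 FC of -0.02 ± 0.40 (SD over 4 pairs; adjusted p = 0.963 in limma). Without replicate 4 the log2 FC was 0.18.

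**Figure D2:**
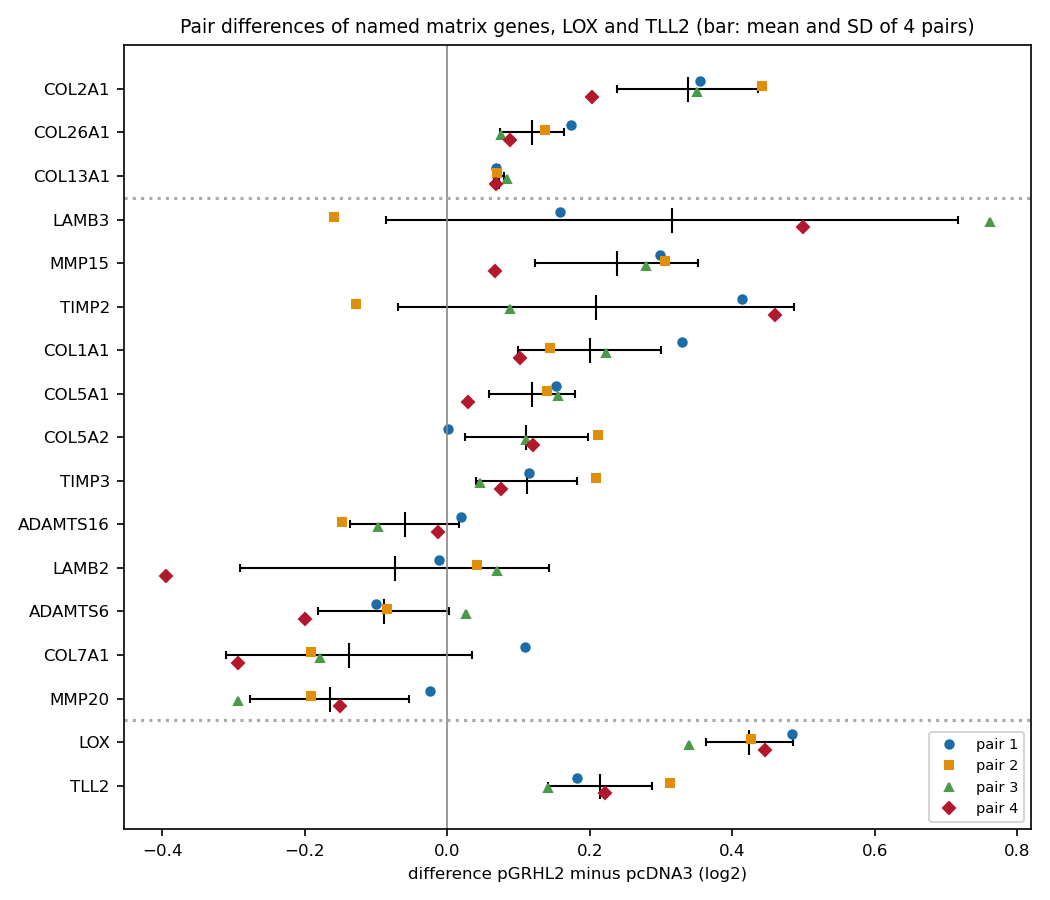
Pair differences of the genes that rose, of other members with large differences, and of LOX and TLL2. The horizontal axis is the difference pGRHL2 minus pcDNA3 in log2 units, the coloured points are pairs 1 to 4, and the bar is their mean and SD. All 4 points of COL2A1 lie between 0.20 and 0.44, whereas those of LAMB3 run from -0.16 to 0.76.

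The collagen with the highest level was COL9A3, a chain of type IX collagen, which decorates fibrils. Its mean log2 level was 11.13 ± 0.045 in pcDNA3 (SD, n = 4), and its log2 FC was 0.11 ± 0.090 (SD over 4 pairs; adjusted p = 0.378 in limma). COL9A2, another type IX chain, was at 8.18 ± 0.043 in pcDNA3 with a log2 FC of 0.03. COL16A1, which belongs to the same group of fibril-associated collagens, had pair differences of 0.26, 0.36, 0.15 and -0.40. COL6A1 and COL6A2, chains of the beaded filament collagen type VI, were higher in all 4 pairs by 0.10 and 0.07 on average and were not called, with limma adjusted p of 0.386 and 0.208. For COL6A1, the pair 2 difference was 0.27, and leaving out replicate 2 brought the mean to 0.04. COL7A1, which forms the anchoring fibrils under epithelia, had one of the lowest differences, -0.14 ± 0.17 (SD over 4 pairs; adjusted p = 0.392 in limma), and its pair 1 was above 0. Within a gene the pcDNA3 SD follows from the spread of its pair differences, because the differences between replicates had been removed from the table. It underestimates the variation between control cultures and is not a measure of it.

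The basement membrane collagens had 0 calls among 8 genes, while 1.69% of all genes were called higher and 0.501% lower. COL4A5 and COL4A6, neighbouring genes on chromosome X, were the most highly expressed type IV chains, with mean log2 levels in pcDNA3 of 8.50 ± 0.11 and 6.68 ± 0.15 (SD, n = 4). COL4A2 was at 4.51 ± 0.0045, and its usual partner chain COL4A1 was near the bottom of the scale at -0.04 ± 0.010. COL4A2 was lower in every pGRHL2 library, at 4.47, 4.47, 4.47 and 4.48 against 4.51, 4.51, 4.52 and 4.51 in pcDNA3. That step of -0.04 ± 0.0090 (SD over 4 pairs) was not called (limma adjusted p = 0.605). COL18A1, a heparan sulfate collagen of basement membranes, was at 7.55 ± 0.13 in pcDNA3 with a log2 FC of -0.04, and 18.5% of its exon bases are shared with other genes, which counting without strand cannot resolve.

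The laminins included some of the most abundant transcripts of these families. LAMC1, the common gamma chain, had a mean log2 level in pcDNA3 of 11.52 ± 0.071 (SD, n = 4). LAMA5, the alpha chain of many epithelial basement membranes, was at 11.49 ± 0.14. LAMB2 followed at 11.28 ± 0.11 and LAMB1 at 10.29 ± 0.070. By level, these 4 chains lay between the 90.3 and the 96.7 percentile of all genes. LAMC3 (5.51 ± 0.056), LAMA3 (5.29 ± 0.045) and LAMB3 (5.24 ± 0.20) formed a lower group. LAMA3 and LAMB3 are chains of the laminin found under stratified epithelia. LAMA2 was at 2.13, LAMB4 at 0.94 and LAMA1 at 0.03.

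LAMB3 had the largest difference among the laminins but also a wide spread. Its log2 values were 5.32, 5.48, 5.02 and 5.15 in pcDNA3 and 5.48, 5.32, 5.78 and 5.65 in pGRHL2. The groups overlapped, since pair 2 differed by -0.16 while pair 3 differed by 0.76. The log2 FC was 0.32 ± 0.40 (SD over 4 pairs; adjusted p = 0.258 in limma). The other laminins reported here had log2 FC between -0.07 for LAMB2 and 0.10 for LAMC3. LAMA1, whose log2 FC was 0.04, was the only one of the 11 that was higher in all 4 pairs, and 11.1% of its exon bases are shared with other genes.

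For LAMC1, LAMA5, LAMB2 and LAMB1, pair 4 again stood apart. LAMA5 was at 11.46, 11.41, 11.41 and 11.70 in pcDNA3 and at 11.53, 11.58, 11.58 and 11.28 in pGRHL2. Its first 3 pairs were thus higher in pGRHL2, by 0.07, 0.17 and 0.17, and pair 4 was lower by 0.42 on the log2 scale. The log2 FC was -0.0023 with all pairs and 0.14 without replicate 4 (limma adjusted p = 0.244). The pair 4 differences of LAMB2, LAMC1 and LAMB1 were -0.40, -0.25 and -0.17.

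Among the metalloproteinases, MMP15, a protease anchored in the cell membrane, had by far the highest level, 9.23 ± 0.057 in pcDNA3 (SD, n = 4). Its log2 values were 9.20, 9.20, 9.21 and 9.32 in pcDNA3 and 9.50, 9.51, 9.49 and 9.39 in pGRHL2. The groups did not overlap, but the difference of 0.24 ± 0.11 (SD over 4 pairs) was not called (limma adjusted p = 0.0975). MMP15 and COL1A1 were both called with array weights (limma adjusted p = 0.0456 and 0.044). They were also called without the pair as a block (limma adjusted p = 0.00449 and 0.00452). That fit counts 6 residual degrees of freedom although the replicate means had been removed. Neither was called in any other setting, for instance with robust eBayes (limma adjusted p = 0.0813 and 0.0903) or the level trend removed (0.0891 and 0.119). The other membrane proteases were lower in level, with MMP17 at 5.47 and MMP14, an activator of MMP2, at 5.24, and their log2 FC were 0.04 and -0.06. The gelatinases MMP2 and MMP9 were near the bottom of the scale in these cells, at -0.35 and 0.35, with log2 FC of -0.0007 and 0.02. MMP20, the enamel protease, was lower in pGRHL2 in all 4 pairs, by -0.17 ± 0.11 (SD over 4 pairs; adjusted p = 0.0959 in limma), at about 16.9 reads per library. MMP20 shares 8.07% of its exon bases with other genes, and MMP19, at 4.24 with a log2 FC of -0.0027, shares 17.6%.

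The inhibitors were more highly expressed than most of the proteases. TIMP1 was at 10.87 ± 0.18 in pcDNA3, TIMP3 at 8.75 ± 0.035, TIMP2 at 8.43 ± 0.14 and TIMP4 at 2.77 ± 0.049 (SD, n = 4). TIMP1 differed by 0.03, -0.46, -0.01 and 0.41 in pairs 1 to 4, so that the mean of -0.0084 ± 0.36 (SD over 4 pairs) covers pairs of opposite direction. TIMP2 had a log2 FC of 0.21 ± 0.28 (SD over 4 pairs; adjusted p = 0.349 in limma), with pair 2 below 0. TIMP3, which stays bound to the matrix, was higher in all 4 pairs, at 8.86, 8.91, 8.83 and 8.84 against 8.75, 8.70, 8.78 and 8.77. The mean step was 0.11 (adjusted p = 0.398 in limma). TIMP4 had a log2 FC of 0.03.

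Of the 14 ADAMTS genes, ADAMTS2, which removes the amino-terminal propeptide of fibrillar procollagens, had the highest level, 7.76 ± 0.024 in pcDNA3 (SD, n = 4). It was higher in all 4 pairs, by 0.13, 0.10, 0.05 and 0.02, and was not called (limma adjusted p = 0.569). ADAMTS6 was at 6.03 with a log2 FC of -0.09 and ADAMTS9, which cuts proteoglycans, at 4.22 with a log2 FC of 0.02. ADAMTS10 was at 3.02, with a log2 FC of -0.01. The smallest adjusted p were found at low levels. ADAMTS8 gave 0.05 (adjusted p = 0.0561 in limma) at about 2.9 reads. ADAMTS13, the protease of von Willebrand factor, had 0.08 (limma adjusted p = 0.0728) at about 14.6 reads, and ADAMTS7 had 0.13 (limma adjusted p = 0.0991) at about 12.9 reads. ADAMTS16 was at 1.40 with a log2 FC of -0.06 (limma adjusted p = 0.319).

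Calls in the higher direction were found mainly at low read levels among all genes. With a limit of 7 on the log2 read scale (128 reads), chosen after the values were seen, 50 of the 70 genes were weak and 20 were abundant. Of the 50 weak genes, 3 were called higher and 20 (40.0%) were higher in all 4 pairs. Of all 8068 weak genes, 252 were called higher against 9 called lower, and 19.5% were higher in all 4 pairs. Of the 20 abundant genes, 0 were called and 3 (15.0%) were higher in all 4 pairs, against 8.24% of all 9469 abundant genes, of which 45 were called higher and 79 lower. The median log2 FC was 0.024 in the weak and 0.022 in the abundant genes of these families, while it was 0.008 in all weak and -0.014 in all abundant genes. Without pair 4, left out here after the values were seen, the medians were 0.023 in the weak and 0.094 in the abundant genes of these families. The order of the 2 thus turned. Over all genes, the medians without pair 4 were 0.009 in the weak and -0.012 in the abundant genes. The part of the read level in the calls of COL2A1, COL26A1 and COL13A1 was not tested beyond the settings named here.

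**Figure D3:**
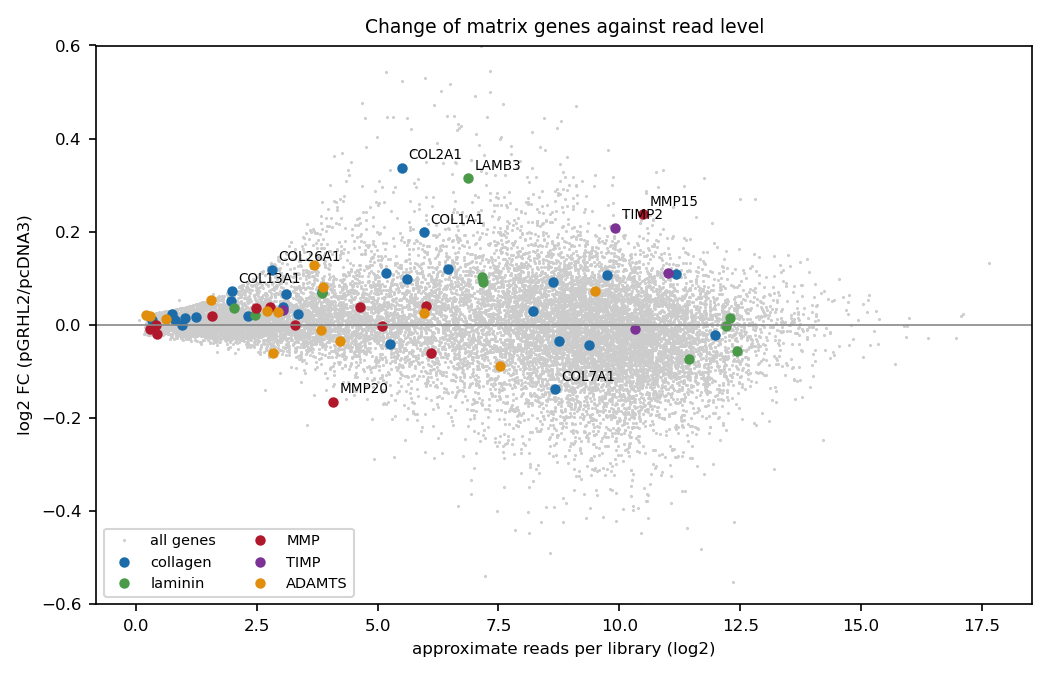
Change against read level. The horizontal axis is the approximate log2 number of reads per library, the vertical axis the log2 FC (pGRHL2/pcDNA3), grey points are all genes and coloured points 69 of the 70 genes by family, and 22 genes beyond ±0.6 are not drawn. Differences are pressed toward 0 at the left, where COL13A1 and COL26A1 lie, and COL2A1 is the highest of the coloured points.

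Among the 20 abundant genes, pair 4 differed from the other 3 pairs, a pattern seen after the values were known. The median difference was 0.11, 0.10 and 0.10 in pairs 1 to 3 and -0.17 in pair 4. The number of genes above 0 was 16, 15, 17 and 7 of 20. Over all 9469 abundant genes the medians were -0.020, -0.018, -0.007 and -0.019, and 4174, 4314, 4543 and 4281 genes were above 0. Among the 20, the lowest pair 4 values were those of COL27A1 (-0.61), COL4A6 (-0.43), COL18A1 (-0.42), LAMA5 (-0.42), COL16A1 (-0.40) and LAMB2 (-0.40). All of them are collagen or laminin chains. In contrast, TIMP1 and TIMP2 had their highest differences in pair 4, 0.41 and 0.46. Low pair 4 values were not limited to these families. Of 12 basement membrane and matrix partners, described below, 3 were above 0 in pair 4, with a median of -0.126. The lowest were HSPG2 (-0.54), FREM1 (-0.39), FRAS1 (-0.35) and AGRN (-0.33). For 24 collagen biosynthesis genes and 11 genes of protease activation and control, the pair 4 medians were -0.002 and -0.003.

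Transcript length and base composition moved with this pattern. The 14 abundant genes whose longest transcript had at least 5000 bases had a median pair 4 difference of -0.27, and the 6 with shorter transcripts had 0.07. Over all 3366 abundant genes with such long transcripts, the pair 4 median was -0.074. For the 7 of those 14 with a GC content of at least 60%, the medians were 0.11, 0.15, 0.15 and -0.40 in pairs 1 to 4. For the other 7, with a GC content under 60%, the pair 4 median was -0.18, and 2 of 7 were above 0. For all 194 abundant genes with transcripts of this length and GC content, they were 0.07, 0.03, 0.08 and -0.17, and 30 of 194 were above 0 in pair 4. Pair 4 was thus also low in genes outside these families that share these properties. Both limits were set after the values were seen, and the part of length and base composition in the differences was not tested.

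**Figure D4:**
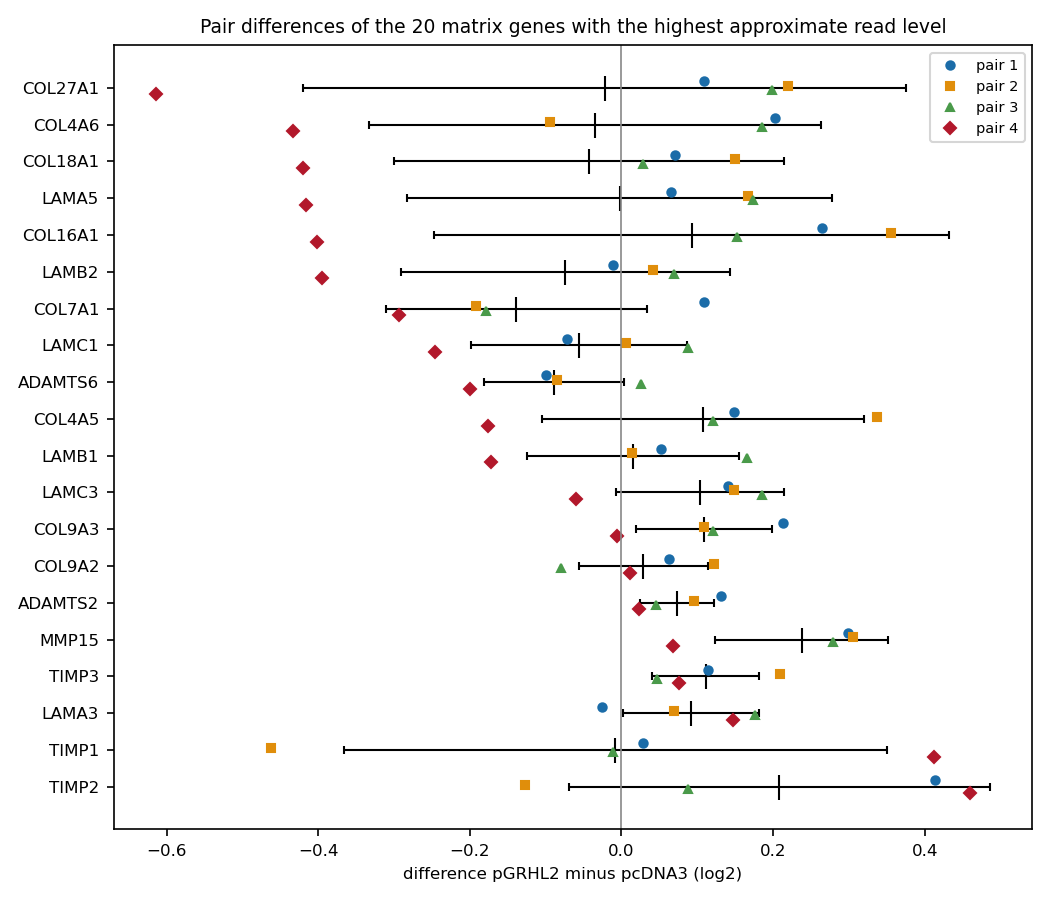
Pair differences of the 20 abundant genes, ordered by pair 4. The horizontal axis is the difference pGRHL2 minus pcDNA3 in log2 units, coloured points are pairs 1 to 4, and the bar is their mean and SD. The red diamonds of pair 4 lie left of all other points for COL27A1, COL4A6, COL18A1, LAMA5, COL16A1 and LAMB2, and at the right for TIMP1 and TIMP2.

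Genes that modify, anchor or control these proteins were taken from a list of 50 partners, of which 47 were in the table. Of these 47, 2 rose and 0 fell, which is 4.26% called higher, against 1.69% of all genes called higher and 0.501% called lower. The median log2 FC of the 47 was 0.023. LOX, the enzyme that cross-links collagen and elastin, spans bases 122063195 to 122078413 of chromosome 5, minus strand. Its log2 values were 5.22, 5.25, 5.30 and 5.24 in pcDNA3 and 5.71, 5.68, 5.63 and 5.69 in pGRHL2. The groups lay well apart, with a log2 FC of 0.42 ± 0.061 (SD over 4 pairs; adjusted p = 0.00278 in limma), a larger difference than in any of the 70 genes. LOX was called without each of the 4 replicates in turn. TLL2, a protease of the family that removes the carboxy-terminal propeptide of procollagens, rose by 0.21 ± 0.073 (SD over 4 pairs; adjusted p = 0.0119 in limma), and its call was lost without replicate 1 (limma adjusted p = 0.0546) and without replicate 4 (limma adjusted p = 0.0543).

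Other partners of these lists did not pass the test and are named here after their values were seen. PCOLCE2, which enhances procollagen processing, differed by 0.23 (adjusted p = 0.0907 in limma), and P4HA2, a prolyl hydroxylase subunit needed for stable collagen, had 0.22 (limma adjusted p = 0.154). Both were higher in all 4 pairs. RECK, a membrane-anchored inhibitor of MMPs, was at 5.04, 5.01, 5.02 and 5.05 in pcDNA3 and at 4.85, 4.88, 4.87 and 4.84 in pGRHL2. RECK was thus lower in all 4 pairs, by -0.17 ± 0.035 (SD over 4 pairs), just beyond the threshold (limma adjusted p = 0.0511). By list, 2 of 24 collagen biosynthesis genes, 0 of 12 basement membrane and matrix partners and 0 of 11 genes of protease activation and control were called, all in the higher direction, for which the share over all genes was 1.69%.

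Markers of the cells that make most liver collagen were examined beside these results. Of 11 fibroblast and stellate markers, 5 were in the table. Their summed log2 level was 10.59 to 10.69 in pcDNA3 and 10.61 to 10.71 in pGRHL2, with overlapping ranges. Most of that sum came from TAGLN, at a mean log2 level of 10.32, followed by ACTA2 at 8.14. PDGFRB, RGS5 and PDGFRA were at 5.08, 3.48 and 1.65. TAGLN and ACTA2 share 47.8% and 36.2% of their exon bases with other genes. Of the 5, PDGFRA rose by 0.09 ± 0.024 (SD over 4 pairs; adjusted p = 0.0393 in limma) at about 5.7 reads per library. For PDGFRA, 16.1% of exon bases are shared with other genes. The call of PDGFRA was lost whichever replicate was left out (limma adjusted p between 0.102 and 0.176), with equal library medians (0.0588), with the level trend removed (0.0859) and when the variance was not allowed to follow the level (0.191). Of 5 endothelial markers, 2 were in the table, and 0 were called. Their summed log2 levels were 5.49 to 5.59 in pcDNA3 and 5.52 to 5.61 in pGRHL2. Among all genes, 1.69% were called higher and 0.501% lower. All libraries came from a single cell line, so the fibroblast, stellate and endothelial markers are not a count of such cells. The relation of these markers to the collagen values was not tested.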

How the data were processed

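RNA-seq was paired-end, from mRNA libraries of 8 HepG2 samples, 4 per plasmid. Per the study's methods, Hisat2 was used by the authors for mapping to hg38 and HTSeq for exon counting (union mode, unstranded), after which sparsely covered genes were dropped and DESeq2 rlog values were divided by mean transcript length. The submitters' processing notes name HISAT2 2.2.1, HTSeq 0.9.1 and DESeq2 1.40.2. The deposited values are on a log2 scale (3.71% were below 0), although the table is named as FPKM. No counts were used, so no counting intervals are given and depth is unknown. In 1 value a stray character was removed. The replicate means had been removed by a step that the methods do not describe.

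Groups and replicate numbers came from the sample titles. The equal pair means make the correlation check for pairing void. The pairing comes from that structure, which was known from earlier results before the fit was chosen. The test was limma 3.58.1 (R 4.3.3; lmFit, eBayes with trend) with replicate number as the block, leaving 3 residual degrees of freedom, with Benjamini-Hochberg adjustment over all 17561 genes and a threshold of 0.05. It was also run on simulated data. There, spreads were shuffled between genes, and changes were placed only in genes with a mean value of at least 5. That run therefore does not bear on the calls of weaker genes. The genes, gene lists and tests were chosen with earlier results of these data known. Genes were named where they were GRHL2, called members or partners, the 5 largest increases and decreases, the 4 highest levels per family, or any laminin or TIMP (36 genes). For 1 gene of the 70, values are not reported here, but it is included in all counts and medians. All others named were chosen after their values were seen.

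Coordinates and lengths come from GENCODE release 44, which matched 99.9% of genes. The approximate read level is the deposited value plus log2 of the mean transcript length in kb. Promoters are from RefSeq. Settings tried were the fit without block, robust eBayes, eBayes without trend, arrayWeights, equal library medians, removal of the level trend from each pair, a minimum mean value of 5, leaving out each replicate (both libraries of a pair), an adjusted p under 0.01 and, added after seeing the data, a variance trend on approximate reads.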

Additional observations from a re-analysis of the deposited data

Results flagged for a closer look

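Of 56 named genes, 5 had 1 pair difference that stood far from the other 3 by Dixon's test of the gap against the range. For genes not picked by their values, about 1 in 20 is expected to do so by chance. Many of the 56 were named for their values, so this share is not a yardstick for them. In pair 4, COL27A1 had -0.61 where its other pairs had 0.11 to 0.22, MMP15 had 0.067 beside 0.28 to 0.31, COL5A1 had 0.029 beside 0.14 to 0.15, and COL24A1 had 0.031 beside 0.011 to 0.014. In pair 3, COL13A1 had 0.084 beside 0.068 to 0.070.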

How the results depend on the processing

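In the order all genes higher, all genes lower, matrix genes higher and partners called, the counts of 297, 88, 3 and 2 depended on the setting. Without the replicate block they were 1821, 1427, 18 and 5, with 1 matrix gene called lower, but that fit counts 6 residual degrees of freedom although the replicate means had been removed. With eBayes without trend they were 4, 2, 0 and 0. With arrayWeights 503 genes were higher, 221 lower and 7 matrix genes higher, and with the level trend removed 191 genes and 1 matrix gene were higher. With a mean value of at least 5 they were 63 higher, 0 matrix genes higher and 1 partner. That filter removes COL2A1, COL26A1, COL13A1 and TLL2, whose mean values were 4.57, 1.70, 1.17 and 2.83. They were therefore not tested under it, and the lower counts say nothing about their calls. The variance trend on approximate reads gave 151 lower genes. At an adjusted p under 0.01 the counts were 77, 10, 1 and 1. Leaving out each replicate gave 79 to 156 higher, 8 to 68 lower, 0 to 1 matrix genes higher, 0 matrix genes lower and 1 to 2 partners. Leaving out a replicate lowers the number of samples, and the filter on the mean value removes genes. Beyond this, the cause of these shifts was not tested.

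Of 421 values of named genes under the other settings, 379 kept direction and side of the threshold, 10 lost the call, 24 gained it and 8 changed sign. The sign changes were ADAMTS10 (0.0068), COL18A1 (0.0011), COL27A1 (0.032), COL4A6 (0.016) and LAMA5 (0.031) with arrayWeights, and COL27A1 (0.0048), LAMA5 (0.017) and TIMP1 (0.016) with the level trend removed. LOX lost its call only with eBayes without trend (limma adjusted p = 0.0556), a setting under which TLL2 gave 0.104. RECK was called lower without the block, with arrayWeights, with equal medians and with the level trend removed. Of 224 values with a replicate left out, 192 kept direction and side, 16 lost the call and 16 changed sign. The ranges of the genes that changed sign were -0.037 to 0.016 (ADAMTS10), -0.0071 to 0.0048 (COL10A1), -0.11 to 0.083 (COL18A1), -0.10 to 0.18 (COL27A1), -0.11 to 0.098 (COL4A6), -0.0020 to 0.065 (COL9A2), -0.061 to 0.14 (LAMA5), -0.035 to 0.077 (LAMB1), -0.12 to 0.033 (LAMB2), -0.10 to 0.0071 (LAMC1), -0.050 to 0.076 (MMP19), -0.0047 to 0.0064 (MMP2), -0.15 to 0.14 (TIMP1) and -0.0058 to 0.066 (TIMP4). The largest shift of a library median by equal scaling was 0.0099. Depth was unknown, so that it cannot be said how many of the weak genes could have been called with more reads.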
